A study of Mus musculus with 6 samples.

Results

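The 39 genes described here encode the enzymes and transporters of glycolysis together with the hypoxia-inducible factors (HIFs), their regulators and a selection of their target genes. They were taken as a list of mouse gene symbols, each matched to its Ensembl gene in the count table, and make up 39 of the 55401 genes in that table. Counts were measured by RNA-seq in 3 derivatives of C3H10T1/2, a mouse mesenchymal stem cell line that can turn into bone, fat or muscle cells in culture. shControl cells carried a control short hairpin RNA and are otherwise labelled wild type, shNFIB cells a hairpin against Nfib, and shMLL1 cells a hairpin against Kmt2a, which encodes the histone methyltransferase MLL1. Each derivative was sampled untreated at confluence (day 0) and at day 7 of culture in osteogenic medium, a medium with dexamethasone at 0.1 µM, ascorbic acid 2-phosphate at 100 µg/ml and β-glycerophosphate at 20 mM. All 6 libraries therefore came from cells that expressed a hairpin, and each hairpin was represented by 1 derivative, for which the methods used here do not state whether it was a clone or a pool.

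Glycolysis splits glucose into pyruvate in the cytosol and yields ATP without oxygen. Its first phase spends ATP to trap and split the sugar, its second phase recovers ATP, and lactate dehydrogenase regenerates the cofactor that the second phase needs. HIF1 and HIF2 are dimers of an oxygen-labile alpha subunit, encoded by Hif1a and Epas1, with ARNT. In the presence of oxygen, prolyl hydroxylases such as the product of Egln1 mark the alpha subunits for destruction through VHL. In low oxygen the dimers bind hypoxia response elements and induce many genes of glucose uptake and glycolysis. This control acts mostly on the HIF proteins, which RNA counts do not measure.

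There was 1 library for each line and day, with 21608680 to 34774066 counts. Levels are given as CPM, each count divided by the size of its library scaled with TMM factors (trimmed mean of M-values), and a library with 3 counts or fewer, which correspond to 0.0939 to 0.123 CPM, was read as being at the floor. Nfib was at 35.3 and 8.15 CPM in shNFIB cells at day 0 and day 7, against 65.5 to 116 CPM in the other libraries, and Kmt2a was at 30.9 and 34.8 CPM in shMLL1 cells against 66.3 to 94.0 CPM elsewhere. Summed over 10 mesenchymal stromal markers, levels were 8020, 11300 and 5190 CPM at day 0 in shControl, shNFIB and shMLL1 cells. At day 7 they were 3910, 6480 and 3590 CPM. The 9 osteoblast markers summed to 1290 to 1380 CPM at day 0 and to 4030, 1540 and 1720 CPM at day 7 in shControl, shNFIB and shMLL1 cells, with Ibsp, a marker of mineralizing osteoblasts, at the floor in every library. Col1a1 and Spp1 made up most of these sums. Both, and Runx2 and Dmp1, were not called over the days. Alpl was called higher, but passed the count filter only through day 7 libraries. It had 7, 8 and 0 counts at day 0 and 111, 215 and 2 at day 7 in the same order of lines, highest in shNFIB cells. Sp7, Bglap and Bglap2 had few counts and were not tested. The 7 adipocyte markers summed to 18.2 to 63.5 CPM at day 0 and 30.2 to 130 CPM at day 7, and the 6 skeletal muscle and 6 blood or endothelial markers summed to at most 3.07 CPM.

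Some markers of other mesenchymal fates changed over the same days. Of the adipocyte markers, Pparg, which had the highest level of them in every library, rose (log2 fold change 0.70, SE 0.18, edgeR adjusted p = 0.024). Plin1, Cidec and Lpl were also called higher. They passed the count filter only through day 7 libraries, where they were high, so their calls are not set beside a share of all genes. Plin1, a coat protein of lipid droplets, had 0 counts in every day 0 library and 472, 9 and 28 at day 7 in shControl, shNFIB and shMLL1 cells. Cidec, another lipid droplet protein, likewise went from 0 counts to 681, 5 and 17, and Lpl, lipoprotein lipase, from 6, 7 and 0 to 1084, 22 and 4, so that all 3 genes were highest in shControl cells at day 7. Cebpa and Fabp4 were not called, with log2 fold changes of -0.63 and 0.16, and Adipoq was at the floor in every library. The 5 chondrocyte markers summed to 410, 270 and 81.0 CPM at day 0 and to 130, 90.6 and 98.6 CPM at day 7, with Acan and Matn1 at the floor. Among them Col2a1, the cartilage collagen, fell and was lower at day 7 in each line (log2 fold change -4.49, SE 0.77, edgeR adjusted p = 0.0068). Sox9 was not called (log2 fold change -0.05, SE 0.25, edgeR adjusted p = 0.90). It was at 187, 87.0 and 68.9 CPM at day 0 and at 119, 88.8 and 96.3 CPM at day 7, where it made up most of the sums. Among the mesenchymal stromal markers, Thy1, Cd44, Vim and Itgb1 fell over the days and Pdgfra rose, while Eng, Pdgfrb, Ly6a and Prrx1 were not called. Nt5e had 1 to 6 counts in each library and was not tested. Thy1 was also called higher in shNFIB than in shControl cells (log2 fold change 2.36, SE 0.25, edgeR adjusted p = 0.030). The part of any of these markers in the changes of the 39 genes was not tested.

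The first question was how these genes changed over 7 days of osteogenic culture in the 3 lines together. Among the glycolytic enzymes, Pfkp, Tpi1, Pgk1, Pgam1, Eno1, Pkm and Ldha fell and Ldhb and Eno2 rose. The others, Gapdh, Hk2 and Aldoc among them, were not called by edgeR, while DESeq2 also called Hk1 and Aldoc lower. Among the HIF genes, Hif1a and Egln1 fell and Epas1, Car9, Adm and Kdm3a rose. Of the 39 genes, 36 had enough counts to be tested. In edgeR's quasi-likelihood fit with line as a block, 7 of the 36 rose and 10 fell at a Benjamini-Hochberg adjusted p under 0.05, beside 16.8% and 16.6% of all 16660 tested genes. The 36 genes had a median log2 fold change of -0.33, and all tested genes a median of 0.000878. Among the 17 glycolytic enzyme genes, 2 rose, 7 fell and 8 were not called, with a median of -0.68. In these bulk libraries a smaller number of cells that express a gene cannot be told apart from less of its RNA per cell. The labels do not say that the libraries came from separate cultures, so the p-values measure only the spread among 6 libraries. When the 2 shControl libraries were left out, none of the 10 lower calls held, and 4 genes (Ldhb, Pfkfb3, Epas1 and Adm) were still called higher. The fit without these libraries called 967 genes higher and 1076 lower of 15867 tested. It also called Aldoc lower. Aldoc passed the count filter only through day 0 libraries, where it was high, so its lower calls here and in DESeq2 are not set beside a share of all genes.

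**Figure D1:**
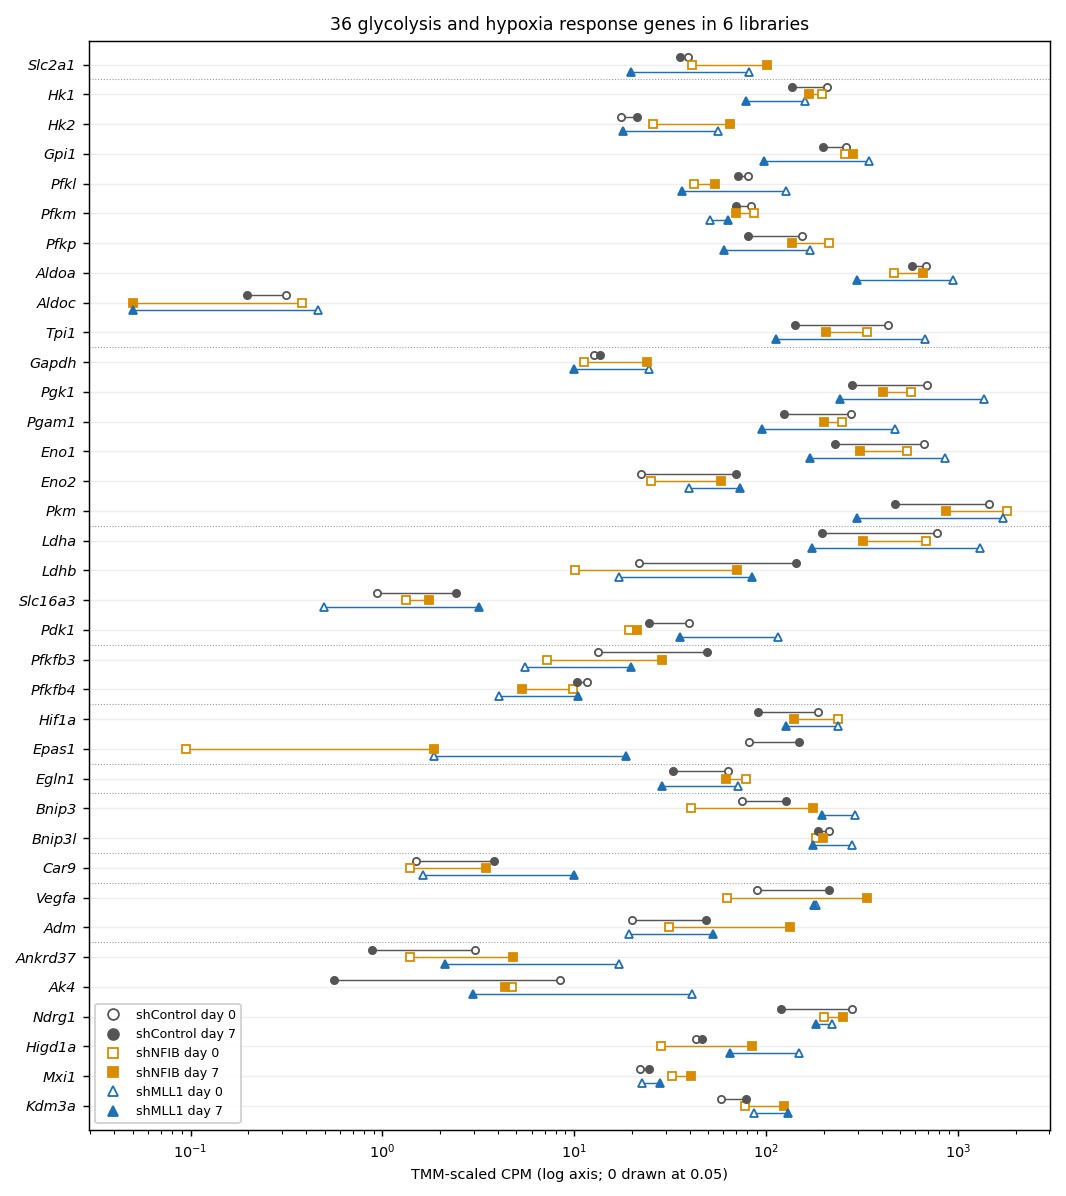
Levels of the 36 tested genes in TMM-scaled CPM on a log axis, grouped by role, with open symbols for day 0 and filled symbols for day 7 joined within each line. The filled symbols of Ldha, Eno1, Pkm and Tpi1 lie to the left of all 3 open ones and those of Ldhb, Eno2, Pfkfb3 and Adm to the right.

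All 13 proliferation genes examined beside these, from Mki67 to Mcm7, fell over the same 7 days, and their summed level went from 2650 to 3680 CPM at day 0 to 365 to 502 CPM at day 7. Of 13 genes often used as internal references, 5 fell, beside 16.6% of all tested genes, among them Actb with a log2 fold change of -1.09 (SE 0.26, edgeR adjusted p = 0.019). The part of either in the changes of the glycolytic genes was not tested.

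Promoter sequences are shown for 8 of the genes because their transcripts moved together or in opposite directions in what follows, although Ldha and Ldhb, or Pgk1 and Hk2, encode enzymes of 1 pathway. Each line gives the 160 bases immediately before the RefSeq start site on the strand of the gene, read 5′ to 3′ (build GRCm38.p6). Capitals mark matches to ACGTG or GCGTG, the core letters of the hypoxia response element, on either strand, where the opposite strand reads CACGT or CACGC. Overlapping matches were taken as 1 site, so CACGTG, which reads the same on both strands and is also an E-box bound by factors such as MYC, appears as 1 run of capitals.
Ldha, chr7:46845644-46845803, plus strand: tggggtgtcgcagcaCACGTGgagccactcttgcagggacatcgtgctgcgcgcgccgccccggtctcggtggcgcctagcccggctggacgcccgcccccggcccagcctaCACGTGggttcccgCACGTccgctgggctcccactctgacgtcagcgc
Ldhb, chr6:142507958-142508117, minus strand: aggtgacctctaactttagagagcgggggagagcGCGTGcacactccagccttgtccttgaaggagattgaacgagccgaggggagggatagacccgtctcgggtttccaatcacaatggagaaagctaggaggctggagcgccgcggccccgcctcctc
Pgk1, chrX:106186940-106187099, plus strand: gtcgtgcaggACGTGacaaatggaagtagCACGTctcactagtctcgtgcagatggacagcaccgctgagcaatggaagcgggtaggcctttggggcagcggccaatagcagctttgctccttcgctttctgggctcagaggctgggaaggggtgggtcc
Pgam1, chr19:41911711-41911870, plus strand: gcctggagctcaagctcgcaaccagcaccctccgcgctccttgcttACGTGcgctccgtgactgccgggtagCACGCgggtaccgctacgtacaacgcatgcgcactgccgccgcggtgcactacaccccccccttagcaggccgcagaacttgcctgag
Hif1a, chr12:73907707-73907866, plus strand: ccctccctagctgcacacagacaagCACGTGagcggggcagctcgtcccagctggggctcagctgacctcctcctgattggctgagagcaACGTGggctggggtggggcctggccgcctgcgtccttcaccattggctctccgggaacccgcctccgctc
Hk2, chr6:82774455-82774614, minus strand: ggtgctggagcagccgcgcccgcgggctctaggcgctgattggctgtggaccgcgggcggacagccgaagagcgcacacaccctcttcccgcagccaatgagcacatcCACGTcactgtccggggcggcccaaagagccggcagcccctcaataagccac
Bnip3, chr7:138909507-138909666, minus strand: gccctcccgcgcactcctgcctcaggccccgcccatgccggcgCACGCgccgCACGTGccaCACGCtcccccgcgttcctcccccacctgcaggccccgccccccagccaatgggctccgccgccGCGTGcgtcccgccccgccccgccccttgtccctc
Adm, chr7:110627497-110627656, plus strand: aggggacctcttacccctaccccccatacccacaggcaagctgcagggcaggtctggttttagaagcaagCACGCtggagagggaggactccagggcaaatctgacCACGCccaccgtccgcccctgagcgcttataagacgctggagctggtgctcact

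Ldha held 3 sites in this stretch, of which a pair began 145 and 48 bases before the start as CACGTG and the other began 34 bases before it. In Pgk1 the sites began 150 and 131 bases before the start. Bnip3 held 4, Pgam1, Hif1a and Adm 2 each, and Ldhb and Hk2 1 each. The windows of Ldha and Hif1a lie within the longer GENCODE span of the gene, and that of Bnip3 meets its first annotated bases. Windows of 300 bases, from 250 before to 50 after the start, were found for 35 of the 39 genes, and not for Slc2a3, Epas1, Bnip3l and Ndrg1. A match to either motif was present in 26 of the 35 windows (74.3%), in 61.4% of the windows of 10990 tested genes and in 47.5% of all 20595 windows. ACGTG alone was present in 17 of the 35 (48.6%), against 25.1% of the tested genes, and GCGTG in 18 (51.4%), against 50.1%. CACGTG was in 4 windows (11.4%), against 9.95%. The median number of CpG dinucleotides was 20 in both sets and the median GC content 62.0% and 60.3%. In windows with a CpG count between the lower and upper quartile of those 35 (14.5 to 26), either motif was present in 12 of 17 (70.6%) and in 69.2% of 4104 tested genes. In the same windows ACGTG was present in 6 (35.3%) against 27.9%, GCGTG in 8 (47.1%) against 56.7%, and CACGTG in 1 (5.88%) against 11.0%, so the shares of the 39 genes were not higher for every motif. Genes with matches moved both ways over the 7 days: Ldha, Pgk1 and Pgam1 fell and Pfkfb3, Car9 and Adm rose. Pkm and Tpi1, which fell, and Eno2, which rose, had no match in the window. A match is a description of letters in the window, and an absent match says nothing of other sites.

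**Figure D2:**
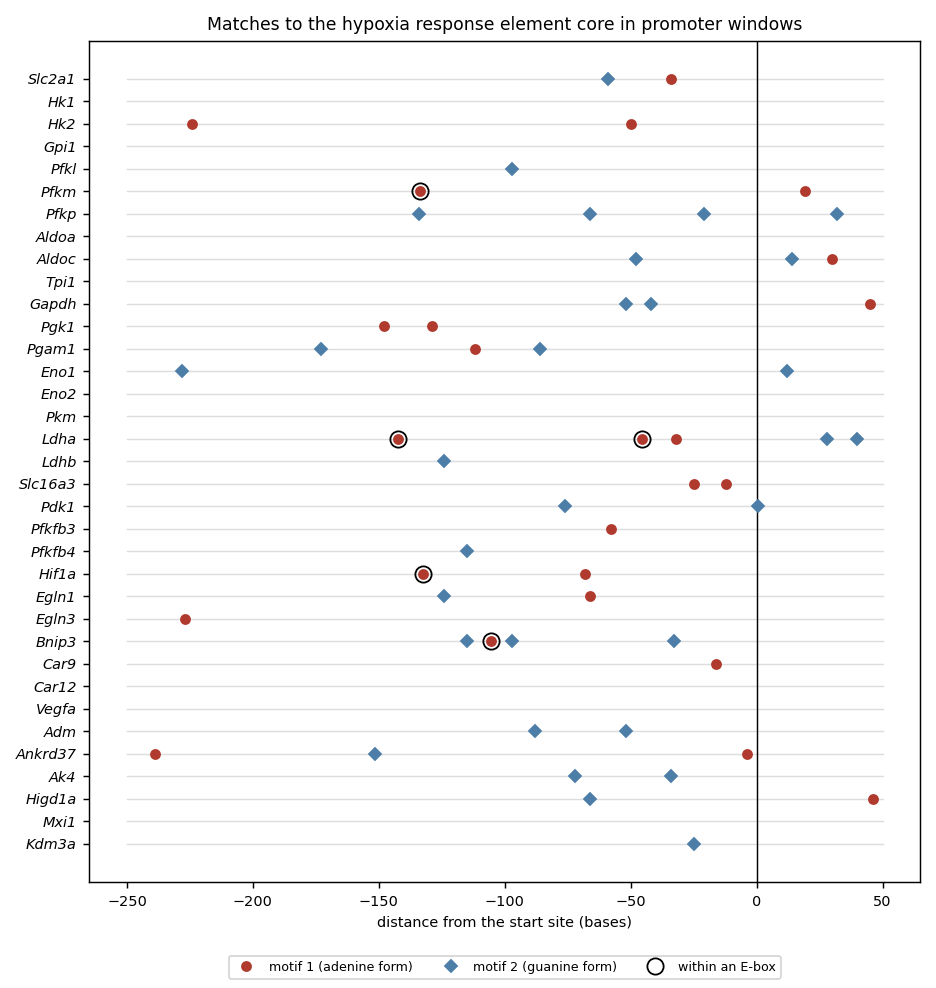
Positions of matches relative to the RefSeq start (vertical line, in bases) in the 35 promoter windows, with circles for ACGTG, diamonds for GCGTG and rings for matches within CACGTG. Matches were found in 26 of the 35 windows, and Ldha, Pfkm, Hif1a and Bnip3 hold the 4 windows with CACGTG.

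Glucose enters these cells through facilitative transporters. Slc2a1 (ENSMUSG00000028645, chromosome 4 from 119108711 to 119137983), which encodes the widely expressed transporter GLUT1, was at 39.2, 41.4 and 81.8 CPM at day 0 in shControl, shNFIB and shMLL1 cells and at 35.7, 101 and 19.7 CPM at day 7. The days overlapped, with the shNFIB library the highest and the shMLL1 library the lowest of day 7, and the day effect was a log2 fold change of -0.28 (SE 0.58, edgeR adjusted p = 0.74). Slc2a3, encoding the neuronal transporter GLUT3, had at most 1 count in any library and was not tested.

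In the hexose phase, 2 of 9 genes fell, Pfkp and Tpi1, beside 16.6% of all tested genes, and the other 7 were not called by edgeR. Hk1, the hexokinase of most tissues, was at 208, 195 and 159 CPM at day 0 and 136, 167 and 78.3 CPM at day 7, a log2 fold change of -0.62 (SE 0.22, edgeR adjusted p = 0.069). Each line was lower at day 7, but the shNFIB library of day 7 was above the shMLL1 library of day 0. Hk2, the inducible hexokinase, was at 17.6, 25.9 and 55.9 CPM at day 0 and at 21.3, 64.5 and 17.9 CPM at day 7. Its days overlapped (log2 fold change 0.01, SE 0.53, edgeR adjusted p = 0.99), because it was higher at day 7 in shNFIB cells and lower in shMLL1 cells. Gpi1, glucose-6-phosphate isomerase, had a log2 fold change of -0.68 (SE 0.38) and an edgeR adjusted p of 0.20.

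The 3 phosphofructokinase genes encode subunits of the committed step. Pfkp (chromosome 13 from 6579768 to 6648777, minus strand), the platelet-type subunit, fell from 154, 214 and 170 CPM at day 0 to 80.3, 136 and 60.5 CPM at day 7 in shControl, shNFIB and shMLL1 cells. The days did not overlap, and the log2 fold change was -1.02 (SE 0.23, edgeR adjusted p = 0.015), a call lost without the line block (edgeR adjusted p = 0.066) and without the shControl libraries (0.091). Pfkl and Pfkm, the liver and muscle types, were not called, with log2 fold changes of -0.52 and -0.09. Pfkp shares bases with Pitrm1 on the opposite strand, and the strand setting of the counting is not given in the sources used here. Aldoa, the main aldolase, was at 682, 467 and 948 CPM at day 0 and 579, 660 and 297 CPM at day 7 and was not called (edgeR adjusted p = 0.42). Aldoc was near the floor throughout, with 10, 12 and 14 counts at day 0 and 6, 0 and 0 at day 7. Tpi1, triose phosphate isomerase, fell from 431, 337 and 677 CPM to 142, 205 and 113 CPM. Every day 7 library was below every day 0 library for Tpi1, and the log2 fold change was -1.63 (SE 0.37, edgeR adjusted p = 0.016).

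In the triose phase, 4 of 6 genes fell and 1 rose, beside 16.6% and 16.8% of all tested genes. Pgk1 (ENSMUSG00000062070, chromosome X from 106187100 to 106203699), phosphoglycerate kinase and the first ATP-yielding enzyme, was at 689, 573 and 1371 CPM at day 0 and at 282, 406 and 244 CPM at day 7. The days did not overlap and the spread was widest at day 0, with shMLL1 cells highest (log2 fold change -1.42, SE 0.40, edgeR adjusted p = 0.033). Pgam1, phosphoglycerate mutase, went from 278, 248 and 472 CPM to 124, 200 and 95.1 CPM. Its log2 fold change was -1.26 (SE 0.38, edgeR adjusted p = 0.041), and it was below all day 0 libraries in each day 7 library. The Pgam1 call was lost without the shMLL1 libraries (log2 fold change -0.78, edgeR adjusted p = 0.070) and without the shControl libraries (-1.36, edgeR adjusted p = 0.15). Eno1 (ENSMUSG00000063524), the ubiquitous enolase, fell from 668, 546 and 857 CPM to 229, 309 and 169 CPM, a log2 fold change of -1.57 (SE 0.33, edgeR adjusted p = 0.013). Eno1 has a near-identical copy, Eno1b, with 20718 counts over the 6 libraries against 84699 for Eno1, and reads that both share could have been lost or split.

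Eno2 (ENSMUSG00000004267, chromosome 6 from 124760053 to 124769673), the enolase known from neurons, rose from 22.2, 25.0 and 39.9 CPM to 69.5, 58.6 and 73.4 CPM. All day 7 libraries lay above all day 0 libraries (log2 fold change 1.25, SE 0.21, edgeR adjusted p = 0.0066). Pkm (ENSMUSG00000032294, chromosome 9 from 59656368 to 59679375), pyruvate kinase of most tissues, fell from 1447, 1798 and 1725 CPM to 470, 864 and 297 CPM. This was a log2 fold change of -1.74 (SE 0.34, edgeR adjusted p = 0.011) with the shNFIB library the highest of day 7. Part of Pkm is also covered by Gm49759 on the same strand. Gapdh was at 12.6, 11.2 and 24.6 CPM at day 0 and 13.6, 24.1 and 10.0 CPM at day 7, with overlapping days. The authors kept only reads of high mapping quality, and Gapdh, which has many processed pseudogenes, is represented here by 2869 counts over 6 libraries. How many of its reads that filter removed is not given in the sources used here, so its level was not set beside those of its neighbours in the pathway.

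At the pyruvate branch, the lactate dehydrogenase subunits moved in opposite directions. Ldha (ENSMUSG00000063229, chromosome 7 from 46841475 to 46855627), whose subunit predominates in cells that make lactate, was at 780, 686 and 1307 CPM at day 0 and at 195, 321 and 174 CPM at day 7. Every line was lower at day 7 without overlap, and Ldha fell by 2.00 on the log2 scale (SE 0.37, edgeR adjusted p = 0.0090). Ldhb (ENSMUSG00000030246, chromosome 6 from 142490249 to 142507957), whose subunit predominates in heart, was at 21.8, 10.1 and 17.0 CPM at day 0 and at 144, 70.2 and 84.6 CPM at day 7. Its days were also separate, and it rose by 2.61 on the log2 scale (SE 0.20, edgeR adjusted p = 0.00056), the smallest adjusted p of the 36 genes. The Ldhb call was kept in all 9 alternatives tried and the Ldha call in 8, the exception being the fit without the shControl libraries. Pdk1, a kinase that shuts pyruvate dehydrogenase, was at 39.5, 19.2 and 115 CPM at day 0 and 24.4, 21.2 and 35.4 CPM at day 7 and was not called (edgeR adjusted p = 0.13). Slc16a3, the lactate exporter MCT4, was low, at 0.50 to 1.33 CPM at day 0 and 1.76 to 3.20 CPM at day 7 (log2 fold change 1.44, SE 0.52, edgeR adjusted p = 0.069).

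Pfkfb3 and Pfkfb4 encode bifunctional enzymes that set fructose 2,6-bisphosphate, an activator of phosphofructokinase. Pfkfb3 (ENSMUSG00000026773, chromosome 2 from 11471433 to 11554077) was at 13.4, 7.25 and 5.53 CPM at day 0 and 49.1, 28.6 and 19.7 CPM at day 7. Its log2 ratios in the 3 lines were 1.88, 1.98 and 1.83, the days did not overlap, and it rose by a log2 fold change of 1.89 (SE 0.20, edgeR adjusted p = 0.0012). Pfkfb4 was at 4.04 to 11.6 CPM at day 0 and 5.35 to 10.4 CPM at day 7 and was not called (edgeR adjusted p = 0.90).

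Levels of isozymes were compared within a family as CPM per kb of merged exons. Ldhb made up 5.57%, 3.01% and 2.67% of summed lactate dehydrogenase at day 0 in shControl, shNFIB and shMLL1 cells and 60.8%, 31.5% and 50.6% at day 7. With the length of the longest coding transcript in place of merged exons, an alternative added after the data were seen, the day 7 shares were 50.6%, 23.3% and 40.4%, so that Ldhb exceeded Ldha in shControl cells under both lengths but in shMLL1 cells under 1 only. Eno2 went from 3.66%, 4.97% and 5.05% of summed Eno1 and Eno2, without Eno1b, to 25.8%, 17.8% and 33.2%. Hk2 was at 10.8%, 16.0% and 33.5% of summed Hk1 and Hk2 at day 0 and at 18.3%, 35.6% and 24.7% at day 7. The shNFIB line thus had the smallest day 7 shares of Ldhb and Eno2 and the largest of Hk2. Pfkm exceeded Pfkp in all 6 libraries by merged exons, but by the longest coding transcript in 2 only, those of shControl and shMLL1 cells at day 7.

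**Figure D3:**
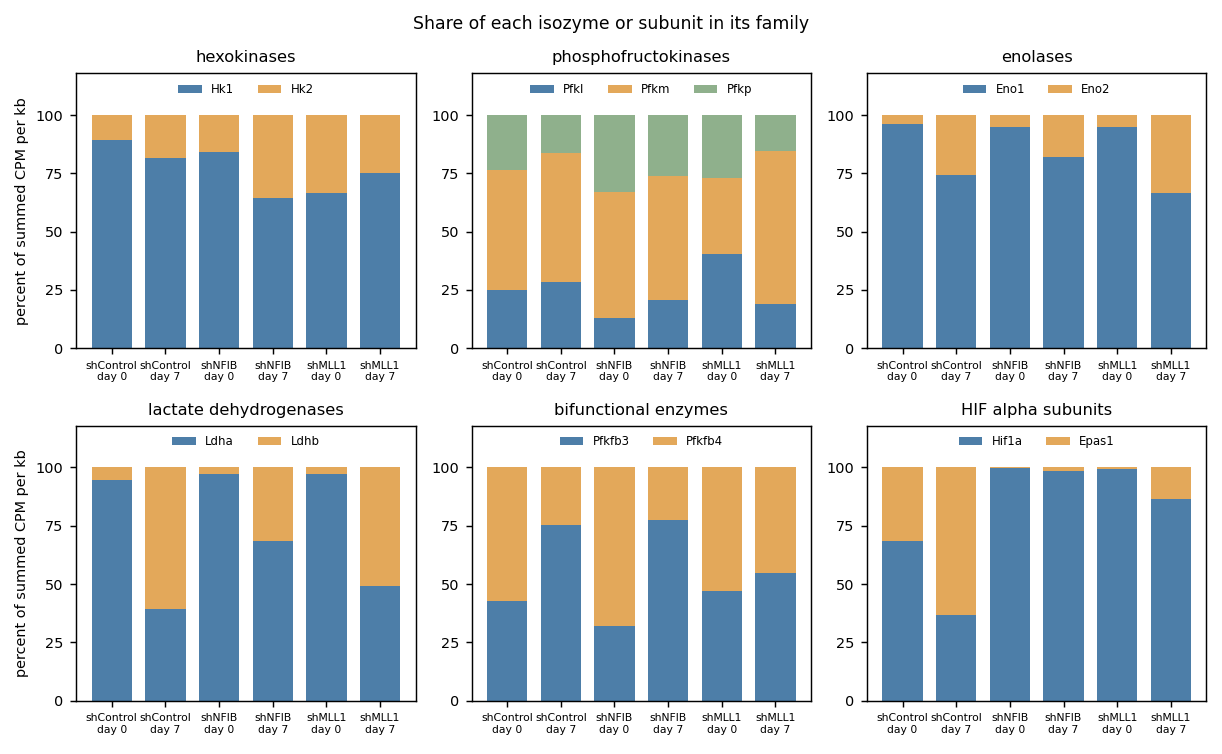
Share of each isozyme or subunit in the summed CPM per kb of its family, one bar per library, in percent. The Ldhb share is 2.67% to 5.57% in the day 0 bars and 31.5% to 60.8% in the day 7 bars, and Epas1 is visible mainly in the shControl bars.

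The 17 glycolytic enzyme genes together took 0.571% of all counts in shControl cells at day 0 (exact 95% binomial interval 0.568% to 0.573%) and 0.296% at day 7. In shNFIB cells the share was 0.502% at day 0 and 0.379% at day 7, and in shMLL1 cells 0.817% and 0.216%. The highest and the lowest share of the 6 libraries therefore both belonged to shMLL1 cells. These intervals cover counting error only, and differences between single libraries have no replicate check.

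**Figure D4:**
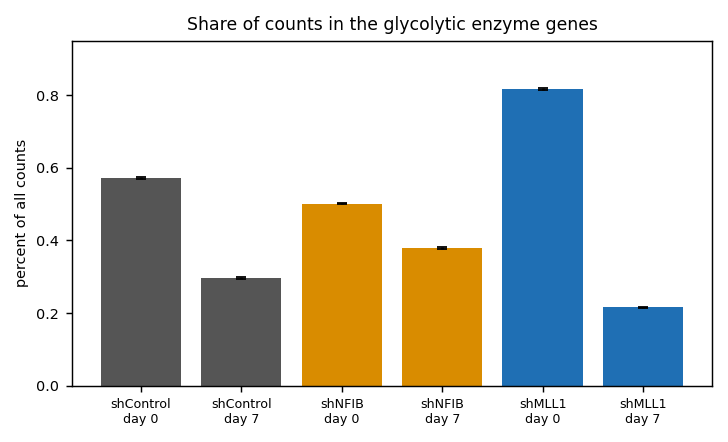
Percent of all counts that fell in the 17 glycolytic enzyme genes in each library, with exact 95% binomial intervals that are narrower than the line of the bars. The share ranges from 0.216% in shMLL1 cells at day 7 to 0.817% in shMLL1 cells at day 0.

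Of the HIF alpha subunits, Hif1a (ENSMUSG00000021109, chromosome 12 from 73901375 to 73947530) was at 186, 236 and 238 CPM at day 0 and at 91.3, 139 and 127 CPM at day 7. The days did not overlap, and Hif1a fell with a log2 fold change of -0.90 (SE 0.19, edgeR adjusted p = 0.014). Epas1 (ENSMUSG00000024140, chromosome 17 from 86753700 to 86833410), which encodes HIF2 alpha, was at 81.5 CPM in shControl cells at day 0 but at 1.86 CPM in shMLL1 cells and at 3 counts (0.095 CPM) in shNFIB cells. At day 7 it was at 149, 1.86 and 18.6 CPM in shControl, shNFIB and shMLL1 cells. Each line was higher at day 7, and the day effect was a log2 fold change of 2.39 (SE 0.57, edgeR adjusted p = 0.020), which was lost without the line block and without the shMLL1 libraries and kept in the other 6 alternatives that could test it. By length, Epas1 made up 31.7% of the summed alpha subunits in shControl cells at day 0 and 63.3% at day 7. The corresponding shares were 0.0425% and 1.39% in shNFIB cells and 0.817% and 13.4% in shMLL1 cells.

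Egln1, the main prolyl hydroxylase that hydroxylates HIF alpha subunits and itself a HIF target, fell from 63.5, 78.5 and 71.8 CPM to 32.9, 62.1 and 28.5 CPM. The day 7 value of shNFIB cells was just under the lowest day 0 value, and the log2 fold change was -0.87 (SE 0.23, edgeR adjusted p = 0.029). The Egln1 call was lost without the line block (edgeR adjusted p = 0.098), without the shControl libraries (0.15) and without the shMLL1 libraries (0.064). Egln3 had 5 counts in 1 library and at most 1 in the others and was not tested.

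The HIF targets outside glycolysis did not move as 1 group. Of the secreted signals, Adm (chromosome 7 from 110627661 to 110629820), the vasodilator peptide adrenomedullin, was at 20.1, 31.3 and 19.2 CPM at day 0 and 48.8, 134 and 53.1 CPM at day 7. Adm rose without overlap of the days (log2 fold change 1.62, SE 0.22, edgeR adjusted p = 0.0032) and was called in all 9 alternatives. Vegfa, the main angiogenic factor, was at 89.8, 62.4 and 182 CPM at day 0 and 213, 334 and 178 CPM at day 7. Its libraries of shMLL1 cells differed by a log2 ratio of -0.04, and its day effect of 1.21 (SE 0.44) had an edgeR adjusted p of 0.073. Vegfa was called higher in 4 of 9 alternatives: scaling by library totals, all genes with a count, DESeq2's test and the fit without the shMLL1 libraries. Car9, a membrane carbonic anhydrase used as a hypoxia marker, rose from 1.50, 1.39 and 1.62 CPM to 3.81, 3.48 and 10.0 CPM (log2 fold change 1.76, SE 0.39, edgeR adjusted p = 0.016). Its level stayed low in every library, and Gm12454 overlaps it on the opposite strand. Car12 had at most 1 count in any library and was not tested.

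Bnip3 and Bnip3l encode receptors that deliver mitochondria to autophagy. Bnip3 was at 75.2, 40.6 and 291 CPM at day 0 and 128, 176 and 196 CPM at day 7, with shMLL1 cells highest on both days. The days overlapped and Bnip3 was not called (log2 fold change 0.77, SE 0.48, edgeR adjusted p = 0.24), nor was Bnip3l, which stayed between 175 and 281 CPM. Ak4, a mitochondrial adenylate kinase, fell from 8.39, 4.72 and 40.9 CPM to 0.558, 4.36 and 2.95 CPM. In shNFIB cells the 2 values were nearly equal, and the call (log2 fold change -2.64, SE 0.80, edgeR adjusted p = 0.042) was lost without the line block, without the shControl and without the shMLL1 libraries. Kdm3a, a histone H3K9 demethylase, was at 58.2, 78.0 and 86.4 CPM at day 0 and 78.4, 125 and 131 CPM at day 7. Every line was higher at day 7 although the days overlapped (log2 fold change 0.57, SE 0.18, edgeR adjusted p = 0.046), and the call was kept in 4 of 9 alternatives. Ankrd37, Ndrg1, Higd1a and Mxi1 were not called, with log2 fold changes of -1.12, -0.38, 0.16 and 0.26.

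The second question was whether the knockdown lines differed from shControl cells over both days. For shNFIB the edgeR quasi-likelihood test called none of the 36 genes higher and 1, Epas1, lower, beside 0.114% and 0.264% of all tested genes. Epas1 had a fitted log2 fold change of -7.64 (SE 0.81, edgeR adjusted p = 0.030). From the counts alone it was 824-fold lower in shNFIB than in shControl cells at day 0 (95% counting interval 293 to 4160, from 3 and 2604 counts) and 80.1-fold lower at day 7 (61.6 to 107). The call was kept in 5 of 6 alternatives that could test it and lost without the day term, where 0 of all 16660 tested genes were called. At an unadjusted p under 0.05, 3 genes were higher (Adm, Mxi1 and Kdm3a) and 3 lower (Ldhb, Pfkfb3 and Epas1) in shNFIB cells, beside 7.26% and 5.31% of all tested genes. DESeq2 called 1 higher and 2 lower, beside 296 and 319 of all 16660 tested genes.

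For shMLL1 the edgeR test called none of the 36 genes in either direction, beside 0.012% of all tested genes called higher and 0.018% called lower. At an unadjusted p under 0.05, 4 genes were higher (Pdk1, Bnip3, Ak4 and Kdm3a) and 3 lower (Ldhb, Pfkfb3 and Epas1), beside 3.71% and 5.62% of all tested genes. DESeq2 called none higher and 2 lower, Epas1 and Pfkfb3, beside 181 and 243 of all 16660 tested genes. Epas1 was 43.8-fold lower in the shMLL1 than in the shControl library at day 0 (95% counting interval 33.7 to 58.3) and 8.01-fold lower at day 7 (7.28 to 8.84), with an edgeR adjusted p of 0.10 over both days. Pfkfb3 was at 5.53 and 19.7 CPM in shMLL1 cells against 13.4 and 49.1 CPM in shControl cells, a log2 fold change of -1.30 (SE 0.24, edgeR adjusted p = 0.12).

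The third question was how each line changed between the days. Each of these comparisons sets 1 library against 1, so it has no test, and a gene was counted when its levels differed over 2-fold. In shControl cells 7 of the 36 genes were over 2-fold higher and 10 over 2-fold lower at day 7, beside 21.8% and 14.9% of all tested genes. In shNFIB cells 13 were higher and 3 lower, beside 16.8% and 13.6% of all tested genes. In shMLL1 cells 7 were higher and 20 lower, beside 25% and 18.8% of all tested genes. The median log2 ratio of the 36 genes was -0.21 in shControl, 0.33 in shNFIB and -1.24 in shMLL1 cells, and that of the 17 glycolytic enzymes was -0.61, -0.31 and -1.80. With Aldoc, at 0 counts in both knockdown libraries of day 7, set to its bound, these medians stayed the same. When libraries were scaled by their totals alone, 1 gene in place of 3 was over 2-fold lower in shNFIB cells. Over all 16660 tested genes, 2048 in place of 2260 were.

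The day change was largest in shNFIB, intermediate in shControl and smallest (or most negative) in shMLL1 cells for 23 of the 36 genes (63.9%) and for 19.9% of all tested genes. Of the 17 glycolytic enzymes, 14 showed this order. For Ldha the log2 ratios were -1.09, -2.00 and -2.91 in that order of lines, for Pkm -1.06, -1.62 and -2.54, and for Pgk1 -0.50, -1.29 and -2.49. All 3 genes were lower at day 7 in each line, and the size differed. For Gpi1 the ratios were 0.13, -0.39 and -1.82 and for Aldoa 0.50, -0.24 and -1.68, so that the shNFIB line was the 1 line not lower at day 7. The day change in shNFIB cells exceeded that in shMLL1 cells by a log2 difference over 1 in 18 of the 36 genes, beside 11.7% of all tested genes, and by -1 or less in 3, beside 17.9%. The order was not tested, since each value rests on 2 libraries.

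**Figure D5:**
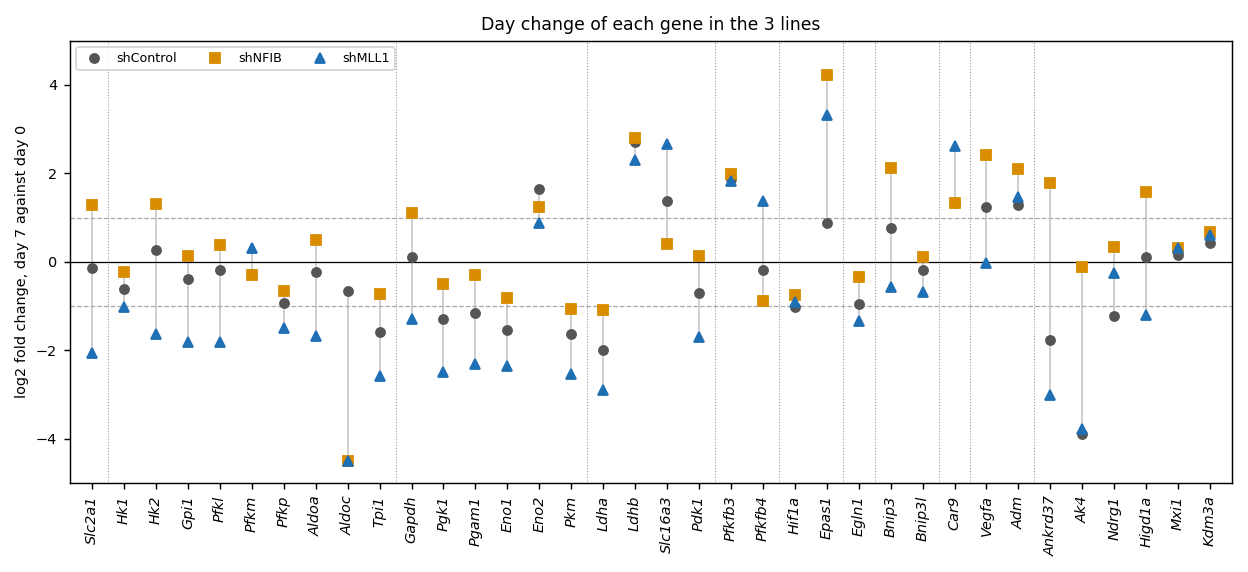
Log2 ratio of day 7 to day 0 for the 36 tested genes in each line, with dashed lines at 2-fold in both directions and dotted lines between roles. The square of shNFIB lies above the circle of shControl and the triangle of shMLL1 below it for 23 genes, and Aldoc, with 0 counts at day 7 in both knockdown lines, is drawn at the lower edge there.

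Some genes changed in opposite directions in the knockdown lines. In 13 of the 36 genes (36.1%) the level was higher at day 7 in shNFIB and lower in shMLL1 cells, which held for 11.3% of all tested genes. In 5 of them both changes were over 2-fold: Slc2a1, Hk2, Gapdh, Ankrd37 and Higd1a. Counted between any 2 of the 3 lines, shControl included, opposite changes over 2-fold were found in 5 of the 36 genes (13.9%) and in 2.81% of all tested genes. Ankrd37, an ankyrin repeat protein induced by hypoxia, was at 3.04, 1.39 and 17.1 CPM at day 0 and 0.886, 4.80 and 2.13 CPM at day 7. Its highest library was shMLL1 at day 0 and its lowest shControl at day 7. Higd1a, a mitochondrial protein of the inner membrane, was at 42.9, 28.3 and 148 CPM at day 0 and 46.4, 84.5 and 64.9 CPM at day 7, with the shMLL1 library of day 0 again the highest. By contrast, Ldhb, Pfkfb3, Adm, Eno2, Car9 and Kdm3a were higher and Hif1a lower at day 7 in every line. Over the 36 genes, 9 (25.0%) were higher and 12 (33.3%) lower in all 3 lines, against 33.3% and 33.3% of all tested genes.

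At day 0 the lines already differed. Setting shMLL1 against shControl, 8 genes were over 2-fold higher and 3 lower, beside 10.2% and 10.2% of all tested genes. The higher genes were Slc2a1, Hk2, Pdk1, Bnip3, Vegfa, Ankrd37, Ak4 and Higd1a, with log2 ratios of 1.02 for Vegfa to 2.49 for Ankrd37, and the lower ones Pfkfb3, Pfkfb4 and Epas1. The shMLL1 library of day 0 was the highest of all 6 for 17 of the 36 genes (47.2%), and for 19.3% of all tested genes. Setting shNFIB against shControl at day 0, no gene was over 2-fold higher and 4 were lower (Ldhb, Pdk1, Ankrd37 and Epas1), beside 7.71% and 6.9% of all tested genes. These comparisons share the shControl library of day 0.

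At day 7 more of these genes stood high in shNFIB cells. Against shControl cells of day 7, 6 genes were over 2-fold higher and 2 lower in shNFIB cells, beside 8.01% and 12.2% of all tested genes. The higher genes were Slc2a1, Hk2, Adm, Ankrd37, Ak4 and Ndrg1, with log2 ratios from 1.08 for Ndrg1 to 2.96 for Ak4. The lower ones were Ldhb and Epas1. In shMLL1 cells 3 were higher (Car9, Ankrd37 and Ak4) and 3 lower (Gpi1, Pfkfb3 and Epas1), beside 7.48% and 6.41% of all tested genes. Aldoc, with 0 counts in both knockdown libraries against 6 in shControl cells, was at least 1.94-fold lower in shNFIB and at least 1.6-fold lower in shMLL1 cells at the floor of 3 counts and was left out of these counts. The shares of all tested genes were taken from ratios with the prior count and still hold genes at 0 counts. Among the 3 libraries of day 7, shNFIB was the highest for 24 of the 36 genes (66.7%) and for 38.5% of all tested genes, and over all 6 libraries shMLL1 at day 7 was the lowest for 15 (41.7%) and for 21.6% of all tested genes. At day 0, by comparison, shNFIB was the lowest of the 3 libraries for 20 of the 36 genes (55.6%) and for 28.6% of all tested genes. Both comparisons share the shControl library of day 7. The 13 proliferation genes summed to 2660, 3680 and 2650 CPM at day 0 in shControl, shNFIB and shMLL1 cells and to 502, 480 and 365 CPM at day 7, and 0 of the 13 were over 2-fold apart from shControl cells of the same day in either knockdown line. The part of these values in the differences was not tested.

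Genes around the pathway were examined from lists that hold no member of the 39, and their counts stand beside the 16.8% of all tested genes called higher and the 16.6% called lower over the days. Of 11 genes of the HIF machinery, 3 were called higher over the 7 days (Hif3a, Arnt2 and Cited2) and 1, Cul2, fell. Hif3a passed the count filter only through the day 7 libraries, where it was high, so its call is not set beside that share. Hif3a, which encodes an alpha subunit without the strong activation domain of the others, had 0 counts in all 3 day 0 libraries and was at 104, 56.3 and 113 CPM at day 7 in shControl, shNFIB and shMLL1 cells, at least 1110-, 593- and 1140-fold higher when day 0 is taken at the floor of 3 counts per library. Arnt2, a dimer partner, rose by a log2 fold change of 1.46 (SE 0.23, edgeR adjusted p = 0.0055), and Cited2, which competes with HIF1 alpha for its coactivator, by 0.86 (SE 0.19, edgeR adjusted p = 0.015). Arnt and Vhl were not called, with log2 fold changes of -0.05 and -0.17. Of 28 tested additional HIF targets, 5 rose and 8 fell, the former close to the 16.8% of all tested genes. Angptl4, an inhibitor of lipoprotein lipase, rose by 2.32 (SE 0.34, edgeR adjusted p = 0.0038), whereas the transferrin receptor gene Tfrc had a log2 fold change of -2.81 (SE 0.78, edgeR adjusted p = 0.032). P4ha1 and P4ha2, which encode subunits of collagen prolyl 4-hydroxylase, fell with log2 fold changes of -1.25 and -0.68 (edgeR adjusted p = 0.031 and 0.037).

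Of 13 tested genes for the entry of pyruvate into mitochondria, 3 rose and 1 fell, beside the same 16.8% and 16.6% of all tested genes. Pdk4, the pyruvate dehydrogenase kinase induced by fasting and glucocorticoids, was at 3.60, 12.7 and 2.92 CPM at day 0 and at 172, 277 and 127 CPM at day 7. All day 7 libraries were far above those of day 0 (log2 fold change 5.15, SE 0.31, edgeR adjusted p = 0.00045). Pcx, pyruvate carboxylase, and Pdk2 rose by 1.48 and 1.33 (edgeR adjusted p = 0.0021 and 0.013), and Pdk3 fell with a log2 fold change of -1.14 (edgeR adjusted p = 0.0056). Of 16 genes of the tricarboxylic acid cycle 7 fell, led by Cs, citrate synthase, with a log2 fold change of -1.17 (SE 0.22, edgeR adjusted p = 0.0085). Of 9 tested transporters of glucose and monocarboxylates, Slc16a1, which encodes MCT1, and Slc2a6 fell by log2 fold changes of -1.86 and -2.78 (edgeR adjusted p = 0.0032 and 0.0064). Slc16a7 and Slc2a4, which encodes GLUT4, were called higher, but passed the count filter only through day 7 libraries, where they were high. Their calls are therefore not set beside a share of all genes. Slc16a7 had 1, 1 and 0 counts at day 0 and 103, 46 and 1 at day 7 in shControl, shNFIB and shMLL1 cells. Slc2a4 had 3, 1 and 0 and then 92, 4 and 11, so that their levels rested on shControl cells or on few counts.

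Of 7 tested additional isozymes 2 rose (Gapdhs and Pfkfb2) and 2 fell (Bpgm and Eno3), and of 8 genes of the pentose phosphate pathway 1 rose, H6pd, and 2 fell, Tkt and Rpe. Of the 2 tested genes of gluconeogenesis, Pck2, the mitochondrial phosphoenolpyruvate carboxykinase, fell with a log2 fold change of -1.83 (SE 0.23, edgeR adjusted p = 0.0022). Among 10 tested regulators of glycolytic genes, Txnip, which restrains glucose uptake, and Mlxip rose by 1.07 and 1.63 (edgeR adjusted p = 0.0094 and 0.010), and Trp53 and Tigar fell. Myc was at 36.1, 37.1 and 59.5 CPM at day 0 and at 15.4, 46.8 and 5.24 CPM at day 7 and was not called (edgeR adjusted p = 0.14). Its highest library of day 0 and its lowest of day 7 were both those of shMLL1 cells. Ero1l, a HIF target that oxidizes disulfides in the endoplasmic reticulum, was at 155, 130 and 513 CPM at day 0 and 31.4, 238 and 37.4 CPM at day 7. It too was highest in shMLL1 cells at day 0 and in shNFIB cells at day 7, and was not called over the days (edgeR adjusted p = 0.14).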

How the data were processed

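The 6 RNA-seq libraries came from C3H10T1/2 cells, 1 for each line and day. According to the submitters' processing notes and the methods, the authors used Trimmomatic 0.39, HISAT2 2.2.1 (GRCm38), SAMtools 1.12 and htseq-count (HTSeq 0.11.1), kept reads of high mapping quality and removed PCR duplicates. The deposited values are raw counts for each Ensembl gene, not normalized, and 0 rows named no gene. The annotation release and strand setting are not given in the sources used here. Positions and merged exon lengths were taken from GENCODE M21 on GRCm38, and promoter windows from RefSeq (GRCm38.p6).

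Counts were fitted with edgeR 4.0.16 (R 4.3.3) by quasi-likelihood, with line and day as terms, TMM factors, genes kept by filterByExpr, and Benjamini-Hochberg adjustment over 16660 genes, leaving 2 residual degrees of freedom and an estimated biological coefficient of variation of 0.281. The line pairs the days, since both came from the same cells. The 2 days of a line deviated together, with correlations across genes of 0.438, 0.422 and 0.265 in shControl, shNFIB and shMLL1 cells. Pairs of libraries were compared by log2 ratios of CPM with a prior count of 0.125, past 2-fold without a test, with exact 95% counting intervals (scipy 1.17.1, Python 3.11.15). Figures were drawn with matplotlib 3.10.9. On simulated counts with a log2 change of 2 and a coefficient of 0.3, the fit called 177 of 200 changed genes for day, 151 for shNFIB and 137 for shMLL1, among 16166 to 16191 genes. Alternatives covered scaling, filters, DESeq2 1.42.0, the terms of the fit, each line left out, prior count, depth, lengths and motifs. All 39 genes are named, and from each further list the called genes with the largest change in each direction or those a sentence needs. The genes and lists were chosen with earlier results of these data known.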

Additional observations from a re-analysis of the deposited data

Results flagged for a closer look

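In 5 genes the change from day 0 to day 7 was over 2-fold upward in shNFIB cells and over 2-fold downward in shMLL1 cells. The difference between the log2 ratios of these lines was 3.35 for Slc2a1, 2.96 for Hk2, 2.39 for Gapdh, 4.79 for Ankrd37 and 2.77 for Higd1a. Each rests on 4 single libraries, and the difference was not tested. In shControl cells the log2 ratios of these genes were -0.13, 0.28, 0.11, -1.77 and 0.12, between those of the knockdown lines in every case. Ankrd37, whose bases overlap those of Ufsp2 on the opposite strand, had at most 17.1 CPM in any library.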

How the results depend on the processing

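None of the 36 genes changed direction while called. For the day effect, the fit without shControl called 4 of these genes higher, beside 967 of 15867 tested genes. The 1 gene that this fit called lower, Aldoc, passed the count filter only through day 0 libraries and is not set beside the 1076 lower calls. Without shNFIB the fit called 7 higher and 12 lower, beside 2534 and 2226 of 16180, and without shMLL1 7 and 7, beside 2147 and 2666 of 15837. DESeq2 called 9 and 12 (3265 and 3240 of 16660), adding Slc16a3, Vegfa, Hk1 and Aldoc. The 12 hold Aldoc, which passed the filter only through day 0 libraries. The fit with no line block called 5 and 7 (2071 and 1810 of 15708). Adm, Ldhb and Pfkfb3 were called in all 9 alternatives. For shNFIB, the higher and lower calls became 1 and 2 with all genes that had a count (341 and 347 calls over all genes) and 1 and 2 with DESeq2 (296 and 319 over all genes), the lower calls 2 with only the 4 libraries compared (287 over all genes), and 0 with at least 10 counts in every library, a filter that removes Epas1, or with no day term (0 lower calls over all genes in both). For shMLL1, they became 2 and 2 with all genes (236 and 290 over all genes), 1 and 1 with only the 4 libraries compared (77 and 106), and 2 lower with DESeq2 (181 and 243). The causes were not tested. Scaling by library totals moved the median day effect of all tested genes to 0.142 and the shMLL1 ratio to 0.254. It left 1 gene over 2-fold lower in shNFIB cells, beside 2048 of all 16660 tested genes. As shares of protein-coding counts, the glycolytic enzymes took 0.588% and 0.309% in shControl, 0.514% and 0.392% in shNFIB and 0.849% and 0.225% in shMLL1 cells. Promoter matches went to 48.6% of the 39 genes' windows and 25.1% of those of tested genes with ACGTG alone, and to 88.6% and 65.4% with any window of a gene, an alternative chosen after seeing the data. No paired analysis was possible beyond the line block because the labels give no replicate numbers. Genes at few counts, such as Aldoc, Slc16a3 and Car9, limit what these depths show.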
